A study of Mus musculus with 27 samples.

Results

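The genes described here lie on a stretch of mouse chromosome 7 whose transcript levels in the retina differed between C3-/- and C3+/+ mice. They were chosen by position: genes with a lowest annotated start within chr7:84000000-106000000 (build GRCm38) and a mean of at least 20 counts over the 27 libraries, without Neu3 and without symbols that begin with Rpl, Rps, Nduf, Cox, Uqcr or Atp5. Of 55487 annotated genes, 673 lie in the segment, 141 of these reached a mean of 20 counts, and 137 remained as members. The segment itself was picked because genes in it differed with C3 genotype in these same libraries, so every C3 difference below is a description, with no test.

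The study crossed heterozygous loss of Gne, a gene for the first enzymes of sialic acid production, with loss of C3, the central complement protein. RNA from whole retinas, taken at 9 months of age, was read with QuantSeq, a method that sequences the 3′ end of each mRNA, with 1 mouse per library. The groups were wildtype (Gne+/+ C3+/+, 7 mice), Gne+/- (C3+/+, 7 mice), C3-/- (Gne+/+, 7 mice) and Gne+/- C3-/- (6 mice). Run 1 of the 2 sequencing runs held 10 C3+/+ and 8 C3-/- libraries, and run 2 held 4 and 5. The labels used here give no strain, no breeding scheme and no description of the C3 or Gne allele. An effect of lost C3 and an effect of other DNA inherited with the C3-/- mice therefore cannot be told apart.

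The members do not form a pathway; what they share is a place on the chromosome. Neighbouring genes tend to be inherited together, as a block. Whether this segment was inherited as a unit was not tested, and C3 itself lies on another chromosome. The segment holds housekeeping genes such as the Golgi GTPase gene Rab6a and sensory genes such as the unconventional myosin Myo7a. It also holds the beta globins, a cluster of Trim genes linked to antiviral defence, and many olfactory receptor genes. Of the 179 genes in the segment whose symbols begin with Olfr, 2 were members, and none of the 38 Vmn (vomeronasal receptor) genes was.

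By annotation, 122 members were protein-coding, 14 were non-coding RNAs and 1 was a pseudogene, and 17 carried provisional symbols. Mean counts ran from 20.5 to 18363, with a median of 282. The member with the highest mean was Dlg2, which encodes a postsynaptic scaffold protein. Counts were present in every library for 108 members. All 137 passed the filter on low counts. A mean of 20 was reached in 1 C3 genotype alone by 9 members, Trim12a, Myo7a, Olfr607, Gm26862, Trim30a, Trim30d, Ddias, Hpx and Gm45799, so their difference was in part built into their selection. The first 4 of these are among the members past the threshold described below; Trim30d, Ddias and Hpx were named after their values were seen.

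Total counts per library ran from 13.5 to 34.2 M. The targeted genes followed the labels: C3 lay between 53.9 and 285 CPM (counts scaled to a common library total) in C3+/+ libraries and between 0 and 3.60 CPM in C3-/- libraries, and Gne was lower in Gne+/- mice by a log2 fold change of -1.58 ± 0.10 (SE). Of the rod and bipolar cell markers checked, Gnat1, Sag, Prkca and Trpm1 had counts, while Rcvrn was listed at 0 throughout. Y-linked genes averaged over 10 CPM in 6 of 8 C3-/- and 2 of 10 C3+/+ libraries in run 1, and for run 2 these numbers were 2 of 5 and 4 of 4, so sex was unevenly spread over the C3 genotypes, in opposite directions in the 2 runs. In bulk retina, fewer cells of a type and less RNA per cell cannot be told apart. All levels below are CPM on TMM-scaled library sizes (a scaling for library composition); they compare a gene between libraries.

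Reference sequences are shown for 5 start sites of members past the threshold described below, because the segment raises the question of what its genes share. Eed, 1 of them, passed with little to spare. Each runs from 150 bases before to 20 bases after the start annotated by RefSeq (build GRCm38.p6), 5′ to 3′ on the gene's strand. Capitals mark a GC box (GGGCGG) or a CCAAT box (CCAAT) on either strand; TATAAA was searched too and was in none of the 5. The sequences are those of the reference genome, and the DNA of the mice themselves was not read here.
Rab6a, chr7:100607436-100607605, plus strand: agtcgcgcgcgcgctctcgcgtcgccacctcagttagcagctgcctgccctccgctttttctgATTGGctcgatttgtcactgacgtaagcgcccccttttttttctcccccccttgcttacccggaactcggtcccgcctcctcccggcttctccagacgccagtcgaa
Ints4, chr7:97480806-97480975, plus strand: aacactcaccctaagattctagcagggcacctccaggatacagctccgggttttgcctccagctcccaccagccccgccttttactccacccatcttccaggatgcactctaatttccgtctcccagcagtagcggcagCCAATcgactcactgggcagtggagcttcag
Eed, chr7:89980957-89981126, minus strand: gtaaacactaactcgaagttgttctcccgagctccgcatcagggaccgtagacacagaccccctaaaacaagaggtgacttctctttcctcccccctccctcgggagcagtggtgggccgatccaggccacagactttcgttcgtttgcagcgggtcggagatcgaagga
Trim12a, chr7:104315476-104315645, minus strand: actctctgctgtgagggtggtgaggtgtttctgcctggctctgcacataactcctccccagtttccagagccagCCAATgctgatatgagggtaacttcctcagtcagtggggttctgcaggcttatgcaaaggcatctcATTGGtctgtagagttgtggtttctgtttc
Olfr607, chr7:103464107-103464276, minus strand: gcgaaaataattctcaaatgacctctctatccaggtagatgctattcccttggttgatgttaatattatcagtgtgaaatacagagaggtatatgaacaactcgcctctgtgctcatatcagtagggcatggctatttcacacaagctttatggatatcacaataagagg
The 5 windows had no motif in common: Trim12a held 2 CCAAT boxes, Rab6a and Ints4 held 1 each, and neither Eed nor Olfr607 held a match. Start sites of Pgm2l1, Myo7a and Pgap2 were searched as well and are not shown. Pgm2l1 held 5 GC boxes, and Myo7a held 2 at its start site 1 and 0 at its start site 2. Pgap2 held 1 GC box at each of its start sites 2 to 5 and 0 at start site 1. Its start site 3 held 2 CCAAT boxes, and its start sites 1 and 5 held TATAAA. RefSeq start sites were found for 110 of the 137 members, 150 windows in all. A GC box was in 47.3% of these against 30.3% of all 32851 windows of the same length, a CCAAT box in 25.3% against 26.3%, and TATAAA in 2.67% against 8.10%. Members had to reach a mean of 20 counts in these libraries, and the genes of the 32851 windows did not. The 2 sets are therefore unlike, and nothing is read from these shares. A match is a run of letters, not a bound site.

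Over both Gne genotypes, 13 of the 137 members (9.49%) differed between C3-/- and C3+/+ mice at an adjusted p under 0.05 in edgeR's quasi-likelihood test, and of all 17409 tested genes 0.569% did. Of the 13, 7 were higher and 6 lower in C3-/- mice, against 0.287% and 0.281% of all genes. The median log2 fold change of the members was 0.09, near 0, while its median size regardless of sign was 0.27, against 0.17 over all tested genes. Nothing is read from these shares, since this contrast chose the segment. The higher members were Trim12a, E230029C05Rik, Rab6a, Ints4, Myo7a, Pgap2 and Pgm2l1, and the lower members were Olfr607, Gm2115, Gm15506, Gm26862, Nars2 and Eed.

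**Figure D1:**
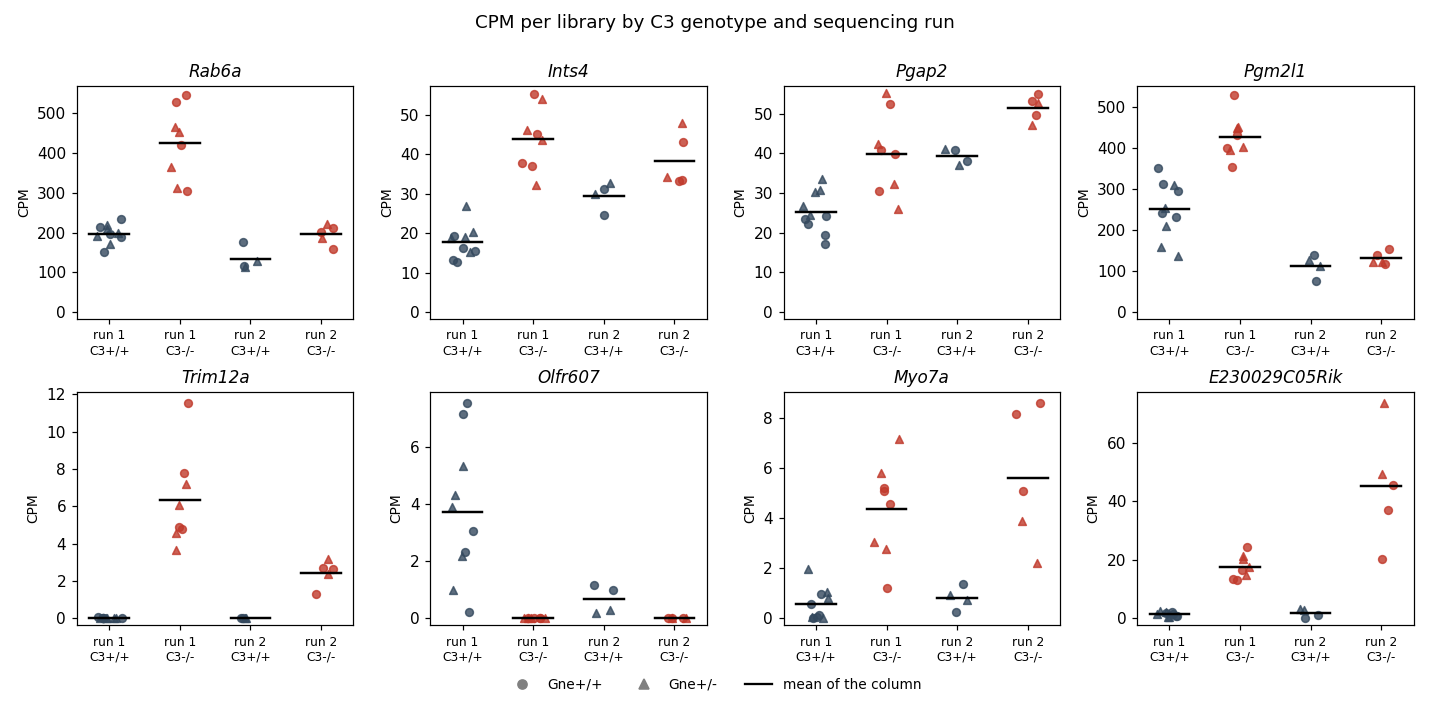
CPM (vertical axes, starting at 0) of 8 members in each of the 27 libraries, by sequencing run and C3 genotype; circles are Gne+/+ mice, triangles Gne+/- mice, and bars are column means. Trim12a is at or near 0 in all 14 C3+/+ libraries and Olfr607 at 0 in all 13 C3-/- libraries. Rab6a is apart between genotypes in run 1 and overlaps in run 2, and Pgap2 does the reverse. Ints4 is apart in run 1 and nearly adjoins in run 2, and Pgm2l1 adjoins in run 1 and overlaps in run 2.

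Rab6a encodes a small GTPase that directs vesicle traffic at the Golgi; the gene spans chr7:100607410-100641268 on the plus strand. In run 1 its level was 151 to 234 CPM (median 197) in C3+/+ libraries and 304 to 548 CPM (median 437) in C3-/- libraries. In run 2 the 4 C3+/+ libraries held 177, 115, 129 and 114 CPM and the 5 C3-/- libraries 203, 212, 159, 221 and 187 CPM. The genotypes did not overlap in run 1 and overlapped in run 2 through 1 wildtype library at 177 CPM. The log2 fold change was 0.92 ± 0.11 (SE), a factor of 1.89.

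Ints4 encodes a subunit of Integrator, the complex that trims small nuclear RNAs and ends many short transcripts; it spans chr7:97480956-97541395, plus strand. Run 1 gave 12.6 to 27 CPM (median 17.4) in C3+/+ and 32.3 to 55.2 CPM (median 44.4) in C3-/- libraries. Run 2 gave 24.5, 31.1, 32.6 and 29.9 CPM against 43.1, 33.2, 33.5, 34.2 and 47.9 CPM. C3-/- libraries were above all C3+/+ libraries in both runs, with a gap in run 2 of less than 1 CPM between 32.6 and 33.2 CPM. The log2 fold change came to 1.01 ± 0.14.

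Pgap2 encodes a Golgi protein that remodels the lipid of GPI anchors, through which many surface proteins are held; it spans chr7:102210208-102238567, plus strand. Its level was 17.2 to 33.5 CPM (median 24.3) in C3+/+ and 26.1 to 55.1 CPM (median 40.4) in C3-/- libraries of run 1. In run 2 it was 38.1, 40.7, 37.1 and 41.1 CPM against 53.1, 55.0, 49.7, 52.7 and 47.1 CPM. The ranges overlapped in run 1 and were separate in run 2, the reverse of Rab6a. This gave a log2 fold change of 0.58 ± 0.11.

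Pgm2l1, which makes a sugar bisphosphate needed by phosphoglucomutases and is strongly expressed in brain, spans chr7:100227394-100278868, plus strand. In run 1 it had 135 to 352 CPM (median 247) in C3+/+ and 352 to 528 CPM (median 417) in C3-/- libraries. In run 2 the values were 75.8, 138, 125 and 111 CPM against 117, 155, 139, 122 and 123 CPM. The groups adjoined without overlap in run 1, less than 1 CPM apart, and overlapped in run 2. The log2 fold change over both runs was 0.59 ± 0.12.

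Trim12a belongs to the rodent family of Trim5, whose products are RING-type ubiquitin ligases that include retrovirus restriction factors; it spans chr7:104299894-104315466, minus strand. Over the 14 C3+/+ libraries it had 1 count in all, in wildtype mouse 5. The 13 C3-/- libraries held 1051 counts, and each had some: 3.66 to 11.6 CPM (median 5.48) in run 1, and 1.29, 2.67, 2.65, 2.37 and 3.16 CPM in run 2. The ratio of summed levels was 1266, with a 95% counting interval of 227 to 50071 that covers counting error only. The fitted log2 fold change, which depends on a prior count, was 8.98 ± 0.57.

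Olfr607, an olfactory receptor gene at chr7:103455526-103464151 on the minus strand, showed the opposite pattern. It had 732 counts over the 14 C3+/+ libraries and none in the 13 C3-/- libraries. In run 1 the C3+/+ level was 0.224 to 7.53 CPM (median 3.47), and in run 2 it was 0.990, 1.14, 0.300 and 0.181 CPM. Every C3+/+ library had a count, though its level varied widely among them. Against a floor of 3 counts over the whole C3-/- group, Olfr607 was at least 202-fold lower in C3-/- mice. The other olfactory receptor gene among the members, Olfr691, had a log2 fold change of -0.04 ± 0.52; it was named after its values were seen.

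Myo7a encodes an unconventional myosin of photoreceptors, pigment epithelium and inner-ear hair cells; it spans chr7:98051060-98119524, minus strand. C3+/+ libraries had 0 to 1.96 CPM (median 0.338) in run 1 and 1.36, 0.263, 0.933 and 0.723 CPM in run 2. C3-/- libraries had 1.20 to 7.17 CPM (median 4.83) and 8.17, 5.07, 8.61, 3.90 and 2.22 CPM. The groups overlapped in run 1 and not in run 2, and the log2 fold change was 2.93 ± 0.54. The summed level of 12 pigment epithelium and melanocyte markers, of which Lrat was at 0 in all libraries, was 217 to 813 CPM in C3+/+ and 434 to 814 CPM in C3-/- libraries of run 1, and 100.8 to 121 against 74.6 to 298 CPM in run 2. The part of these cells in the Myo7a difference was not tested.

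E230029C05Rik is a non-coding transcript at chr7:89980723-90049069 on the plus strand. In run 1 it had 0.301 to 2.39 CPM (median 1.39) in C3+/+ and 13.1 to 24.3 CPM (median 17.0) in C3-/- libraries. In run 2 it had 0.124, 0.966, 2.7 and 3.07 CPM against 45.5, 20.4, 37.2, 49.5 and 73.8 CPM. The genotypes were far apart in both runs, with a log2 fold change of 4.13 ± 0.34. Its annotated start overlaps that of Eed, on the other strand, by 261 bases.

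Eed, at chr7:89954654-89980983 on the minus strand, encodes a core subunit of the Polycomb complex that methylates histone H3. In run 1 it had 6.86 to 26.9 CPM (median 17.1) in C3+/+ and 2.07 to 8.43 CPM (median 7.62) in C3-/- libraries. In run 2 it had 45.8, 42.0, 37.7 and 40.7 CPM against 42.8, 34.6, 31.4, 45.8 and 45.8 CPM. So the C3-/- libraries were mostly low in run 1 and lay among the C3+/+ libraries in run 2. The log2 fold change was -0.88 ± 0.21 over both runs, -1.32 in run 1 alone and -0.02 in run 2 alone. Eed passed the threshold with little to spare. Without any 1 of 15 libraries it no longer did, at log2 fold changes of -0.89 to -0.77: wildtype mice 2 and 4, Gne+/- mice 1, 2, 3 and 4, C3-/- mice 1, 2, 5, 6 and 9, and Gne+/- C3-/- mice 3, 4, 5 and 6.

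Nars2 encodes the mitochondrial asparaginyl-tRNA synthetase and spans chr7:96951505-97064758, plus strand. Run 1 gave 13.1 to 24.8 CPM (median 15.8) in C3+/+ and 4.75 to 9.43 CPM (median 7.25) in C3-/- libraries. Run 2 gave 9.03, 24.6, 25.8 and 21 CPM against 20.7, 21.7, 19.3, 22.4 and 17.6 CPM. The genotypes were separate in run 1 and mixed in run 2. Its log2 fold change was -0.86 ± 0.20 over both runs, -1.31 in run 1 alone and 0.04 in run 2 alone. Nars2 no longer passed the threshold without any 1 of 7 libraries, at -0.86 to -0.79: C3-/- mice 1, 2 and 6 and Gne+/- C3-/- mice 3, 4, 5 and 6.

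The other 3 lower members carry provisional symbols, and Gm2115 and Gm15506 were named after their values were seen. Gm2115 (chr7:84528954-84583531) had 10.8 to 29.8 CPM (median 19.6) in C3+/+ and 2.83 to 7.13 CPM (median 5.47) in C3-/- libraries of run 1. In run 2 its values were 8.82, 14.5, 17.9 and 21.4 CPM against 11.4, 7.30, 7.02, 7.16 and 5.34 CPM, and its log2 fold change was -1.66 ± 0.21. Gm15506 (chr7:98682336-98702928) had 21.8 to 38.1 CPM (median 27.9) against 9.39 to 14.3 CPM (median 13) in run 1. Both were separate in run 1 and overlapped in run 2, where Gm15506 had 11.9, 12.4, 6.23 and 10.5 CPM against 2.7, 4.76, 6.72, 3.08 and 9.28 CPM; its log2 fold change was -1.11 ± 0.16. Gm26862 (chr7:93006982-93104789) had 0.500 to 6.70 CPM (median 4.58) against 0 to 3.00 CPM (median 0.474) in run 1. It was separate in run 2, with 7.34, 2.77, 0.999 and 1.34 CPM against 0.0615, 0.633, 0.354, 0.296 and 0 CPM, and its log2 fold change was -2.87 ± 0.55.

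By role, 90 members fell into 8 lists chosen with earlier results of these data known, and 47 fell into none. In membrane traffic, Golgi and lysosome, 2 of 18 members were past the threshold, Rab6a and Pgap2, both higher; the median log2 fold change was 0.10. Prcp, a lysosomal peptidase of the same list, had 0.33 ± 0.13 and was not. In transcription, chromatin, RNA processing and DNA synthesis, 1 of 14 members was higher (Ints4) and 1 lower (Eed), with a median of 0.08. In mitochondria, 1 of 10 was lower (Nars2) and none higher, with a median of 0.03. Clpb, a mitochondrial chaperone that dissolves aggregates, had -0.25 ± 0.10.

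In kinase, GTPase and receptor signalling, 0 of 13 members passed, though 11 of 13 values were above 0 and the median was 0.23. The values were 0.32 ± 0.09 for Arhgef17, an exchange factor for small GTPases, 0.28 ± 0.10 for Stim1, the calcium sensor of the endoplasmic reticulum, and 0.41 ± 0.18 for the cholecystokinin receptor gene Cckbr. In neurons, photoreceptors and sensory cells, 2 of 16 were higher, Myo7a and Pgm2l1, with a median of 0.07. Dlg2 had 0.26 ± 0.08 and did not pass. In protein folding, glycosylation and turnover, 0 of 11 passed, with a median of 0.08. Their lowest value was -1.02 ± 0.33 for Serpinh1, a collagen chaperone; Fah, an enzyme of tyrosine breakdown, had -0.59 ± 0.17, and Zfand6, a zinc finger protein gene, 0.23 ± 0.09.

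In the Trim cluster 1 of 6 members passed, Trim12a, and the median was 0.71. Trim30a, an interferon-induced relative, had 0 to 3.06 CPM in C3+/+ and 0.715 to 5.86 CPM in C3-/- libraries over both runs, with a log2 fold change of 1.6 ± 0.8. Trim12c, the closest member by name to Trim12a, had -0.65 ± 0.34. The 2 beta globins, Hbb-bs and Hbb-bt, had 0.66 ± 0.60 and 0.35 ± 0.71. Hbb-bs had 9.26 to 210 CPM in C3+/+ and 17.5 to 648 CPM in C3-/- libraries of run 1. The ranges overlapped, and the C3-/- range reached higher. Medians of the summed Hbb-bs and Hbb-bt level went the other way. They were 62.2 CPM in C3+/+ and 51.0 CPM in C3-/- libraries of run 1, and 35.2 against 25.2 CPM in run 2. The highest sums were 686 CPM in C3-/- mouse 6 and 391 and 296 CPM in Gne+/- C3-/- mice 3 and 4. Hba-a1 and Hba-a2, the alpha globin copies on another chromosome, summed to 0.185 CPM at most in run 1 and to 4.44 to 47.2 CPM in run 2, so they give no check on red cells in run 1.

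Trim12a and Trim12c differ little in their coding sequence, which bears on how well reads can be assigned. Over the 894 bases of the Trim12a coding sequence, Trim12c was 96.3% identical, with 33 differing bases, and Trim5 was 97.0% identical, with 27. The 90 bases from coding position 125 to 214, counted from 1 at the first base of the start codon, hold 8 of the 33 differences, shown in capitals in the annotated GRCm38 transcripts.
Trim12a: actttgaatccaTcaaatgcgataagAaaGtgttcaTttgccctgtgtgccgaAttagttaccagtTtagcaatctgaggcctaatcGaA
Trim12c: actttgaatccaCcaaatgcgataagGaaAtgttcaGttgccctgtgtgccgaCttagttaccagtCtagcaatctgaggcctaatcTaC
At the 3′ end, where QuantSeq reads start, the copies diverge: the best local match of the last 300 bases of the Trim12a transcript covered 14 bases in Trim12c and 32 in Trim5. The summed level of Trim12a and Trim12c was 2.61 to 12.4 CPM in C3+/+ and 6.63 to 16.8 CPM in C3-/- libraries of run 1, and 1.6 to 5.03 against 3.13 to 8.97 CPM in run 2. The sums overlapped in both runs, while Trim12a alone did not.

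Mrpl48, which encodes a protein of the large mitochondrial ribosomal subunit, lies next to Rab6a on the other strand, and the 2 annotated genes overlap by 892 bases. Reads in that overlap are counted for neither gene. Mrpl48 had 7.82 to 23.4 CPM in C3+/+ and 14.9 to 25.2 CPM in C3-/- libraries of run 1. In run 2 it had 21.5, 38.2, 43.9 and 27.9 CPM against 47.3, 52.4, 54.9, 50.6 and 49.9 CPM. Its ranges overlapped in run 1 and were separate in run 2, its log2 fold change was 0.55 ± 0.14, and it was not past the threshold in edgeR. In DESeq2 and limma-voom it did pass. The pseudogene Mrpl48-ps on chromosome 4, 98.1% identical to Mrpl48 over 617 aligned bases, had 1271 counts over the C3+/+ libraries and 3 over the C3-/- libraries. The summed level of Mrpl48 and Mrpl48-ps was 24.6 ± 9.82 CPM (SD, n = 14) in C3+/+ and 32.1 ± 15.9 CPM (SD, n = 13) in C3-/- libraries; in run 1 it was 20.8 ± 6.15 (n = 10) against 20.3 ± 3.92 (n = 8). For run 2 the sum was 34.3 ± 11.4 (n = 4) against 51.0 ± 2.83 (n = 5). The sum thus had nearly the same mean in both genotypes in run 1 and a higher one in C3-/- libraries in run 2. How reads were divided between the copies was not tested.

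**Figure D2:**
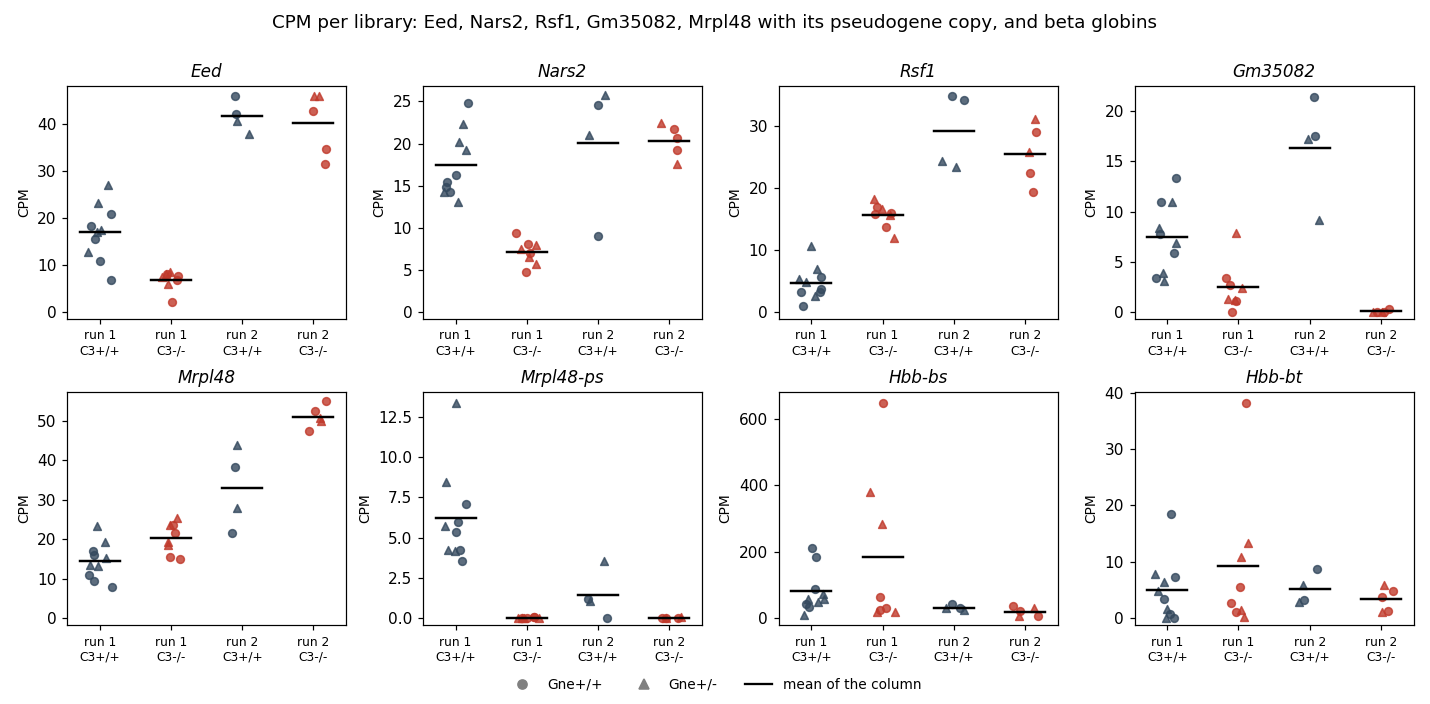
CPM (vertical axes, starting at 0) in each of the 27 libraries, by run and C3 genotype, for 5 members, the pseudogene Mrpl48-ps and the beta globins; circles are Gne+/+ mice, triangles Gne+/- mice, and bars are column means. Nars2 and Rsf1 are apart between genotypes in run 1 and Eed nearly so, all 3 are mixed in run 2, Gm35082 is near 0 in the run 2 C3-/- libraries, and Mrpl48-ps is near 0 in all C3-/- libraries.

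The C3 difference was next set side by side in the 2 Gne genotypes, comparisons that share no library. Y-linked genes averaged over 10 CPM in 4 of 4 C3-/- and 0 of 5 wildtype libraries of run 1. In run 2 they did so in 0 of 3 and 2 of 2. Effects of C3 genotype and of sex therefore cannot be told apart within either run of that comparison. For Gne+/- C3-/- against Gne+/- the numbers were 2 of 4 and 2 of 5 in run 1, and 2 of 2 in each group in run 2. In C3-/- against wildtype, 8 members passed the threshold (0.167% of all tested genes did), and in Gne+/- C3-/- against Gne+/-, 6 members did (0.19%). The 6 were Gm2115, E230029C05Rik, Ints4, Rab6a, Olfr607 and Trim12a, and all 6 were among the 8, which also held Gm15506 and Pgap2. Shared members were thus 75.0% of the first list and 100% of the second. Over all members 103 of 137 (75.2%) had the same sign, against 56.5% of all tested genes; nothing is read from this, since the segment was chosen on the same C3 values.

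Rab6a had nearly the same value in both, a log2 fold change of 0.91 ± 0.15 with 2 copies of Gne and 0.93 ± 0.15 with 1 copy. For Ints4 the values were 1.11 ± 0.19 and 0.91 ± 0.20, for Pgap2 0.76 ± 0.16 and 0.39 ± 0.16, and for Pgm2l1 0.49 ± 0.17 and 0.69 ± 0.17. Myo7a, with low counts, had 3.44 ± 0.77 and 2.42 ± 0.75.

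**Figure D3:**
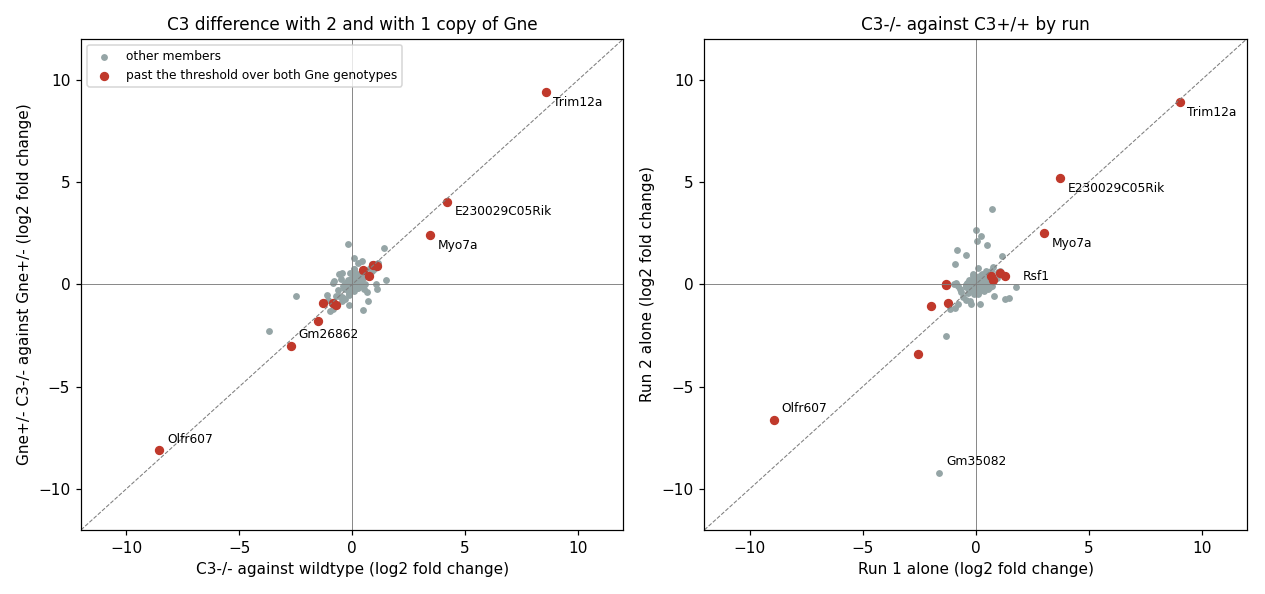
Each point is 1 of the 137 members; axes are log2 fold changes of C3-/- against C3+/+, and the dashed line marks equal values. Left, Gne+/+ mice (horizontal) against Gne+/- mice (vertical), with the 13 members past the threshold over both Gne genotypes in red, a selection that used both axes; right, run 1 alone against run 2 alone, where Rsf1 and Gm35082 lie away from the line.

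The test of the difference between these 2 C3 effects, the interaction of C3 and Gne, was not used to choose the segment. In edgeR 0 of 137 members passed it, at an adjusted p under 0.05, against 0.0% of all tested genes. DESeq2 and limma-voom also called 0 members. At an unadjusted p under 0.05 there were 0 members, against 3.18% of all genes; the smallest unadjusted p was 0.0506 in edgeR, for Dgat2, a triglyceride synthesis enzyme named after its values were seen. The difference was 0.02 ± 0.21 for Rab6a, -0.21 ± 0.28 for Ints4, -0.37 ± 0.23 for Pgap2, 0.20 ± 0.24 for Pgm2l1 and -0.06 ± 0.40 for Eed. For Myo7a it was -1.01 ± 1.03, an error several times wider than that of Rab6a. A missed threshold does not show that the C3 effects were equal.

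The effect of Gne itself, Gne+/- against Gne+/+ over both C3 genotypes, was tested as well. In edgeR 0 of 137 members passed, against 0.00574% of tested genes, and DESeq2 and limma-voom also called 0. No member had an unadjusted p under 0.05, against 3.3% of all genes, and the smallest was 0.0526 in edgeR. Without the filter on low counts edgeR called 1 member, Hbb-bs. The log2 fold change was -0.07 ± 0.11 for Rab6a, 0.20 ± 0.14 for Ints4, 0.12 ± 0.12 for Pgap2, -0.13 ± 0.12 for Pgm2l1, 0.28 ± 0.20 for Eed and 0.01 ± 0.19 for Nars2. The median size over members was 0.15, against 0.14 over all tested genes.

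The 2 sequencing runs differed for most genes. Of the members 83 of 137 (60.6%) passed the threshold between runs in edgeR, close to the 59.5% of all tested genes; 37 were higher in run 2 and 46 lower, against 30.3% and 29.2% of all genes. Eed was higher in run 2 by 2.01 ± 0.21, Rsf1 by 1.77 ± 0.28 and Nars2 by 0.91 ± 0.20, while for Pgm2l1 the log2 fold change was -1.42 ± 0.14 and for Rab6a -0.84 ± 0.12. The model held a run term for this reason, and levels were given per run.

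Within run 1 the C3-/- and C3+/+ libraries did not overlap for 11 members, against 0.287% of all tested genes, and within run 2 for 17 members, against 2.37%. In both runs and in the same direction this held for 4 members, Trim12a, E230029C05Rik, Ints4 and Olfr607, against 0.109% of all genes. These shares too come from the C3 values that chose the segment, so nothing is read from them. Rsf1, a chromatin remodelling factor gene whose span is 80.5% overlapped by other annotated genes, was among the members separate in run 1 alone. It had 0.894 to 10.7 CPM (median 4.31) in C3+/+ and 11.9 to 18.2 CPM (median 15.9) in C3-/- libraries of run 1. In run 2 it had 34.1, 34.7, 23.3 and 24.3 CPM against 22.3, 29.0, 19.2, 31.0 and 25.8 CPM, with no order between the genotypes. Its log2 fold change was 1.77 in run 1 alone and -0.14 in run 2 alone.

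A test of whether the C3 difference itself differed between runs was added after these values were seen. In edgeR 1 member passed, Gm35082, against 0.0402% of all tested genes. This non-coding RNA gene (chr7:100675088-100677760) had 3.07 to 13.3 CPM (median 7.33) in C3+/+ and 0 to 7.88 CPM (median 1.82) in C3-/- libraries of run 1. In run 2 it had 17.5, 21.4, 17.2 and 9.14 CPM against 0, 0.303, 0, 0 and 0 CPM, so the groups met in run 1 and were far apart in run 2. The difference of log2 fold changes was -5.85 ± 1.09 with an edgeR adjusted p of 0.0233. For Rsf1 it was -2.01 ± 0.45 (edgeR adjusted p = 0.130), for Nars2 1.32 ± 0.34 (edgeR adjusted p = 0.357), for Ints4 -0.94 ± 0.25 (edgeR adjusted p = 0.391) and for Eed 1.26 ± 0.38 (edgeR adjusted p = 0.695).

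With an added term for Y-linked expression, this test in edgeR called 0 members, against 0.023% of all genes. limma-voom called 2 members, Rsf1 and Gm35082, against 0.121%, and DESeq2 called 3, against 0.138% of the genes it tested. At an unadjusted p under 0.05 in edgeR there were 14 members (10.2%), against 3.86% of all genes. Nothing is read from these shares, since the test followed a look at the values and the segment was chosen on C3 differences. Since the sexes were spread in opposite directions over the C3 genotypes in the 2 runs, the part of sex was not tested beyond the added term.

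Along the chromosome the members past the threshold were spread over the segment: from Gm2115 at 84.5 Mb to Trim12a at 104.3 Mb, in 8 of 11 windows of 2 Mb. They were interspersed with genes of small change: Dlg2, Grm5 and Tenm4 lie between them, and Tenm4, a neuronal adhesion gene, had -0.13 ± 0.08, while Grm5, a glutamate receptor gene, had 0.05 ± 0.12. Grm5 and Tenm4 were named after their values were seen. Counting all tested genes of the segment, members or not, 16 of 164 (9.76%) passed. The share was 0.515% of 776 genes on chromosome 7 before it, with 3.57% of the 84 genes within 10 Mb of the segment, and 2.50% of 360 after it, with 6.74% of the 89 nearest, up to 120 Mb. On other chromosomes it was 0.435% of 16109 genes, with the highest shares on chromosome 12 (1.94% of 670) and chromosome 16 (1.65% of 544). Outside the segment, the window from 116 to 118 Mb held 3 of 11 genes past the threshold (27.3%). Inside it, the highest share was 3 of 12 (25.0%), from 88 to 90 Mb. Nothing is read from these shares, since the segment was chosen on the same C3 values.

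The edges of the segment are a choice, and the few genes nearest to them cannot show whether the data hold a step there. Just inside the start, Abhd17c and Arnt2 had log2 fold changes of 0.14 ± 0.15 and 0.07 ± 0.14, and just outside it Mesd and Cemip had 0.03 ± 0.12 and 0.27 ± 0.24. Just inside the end, Tpp1 and Dchs1 had -0.08 ± 0.15 and 0.85 ± 0.36, and just outside it Syt9 and Olfml1 had -0.29 ± 0.09 and -1.30 ± 0.69. At the count limit, Inppl1 (mean count 20.5) had -0.93 ± 0.62 and Gm45799 (20.7) -0.39 ± 0.81, while Xndc1 (19.9) had -0.80 ± 0.92 and Gm15645 (18.7) 0.21 ± 0.66.

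**Figure D4:**
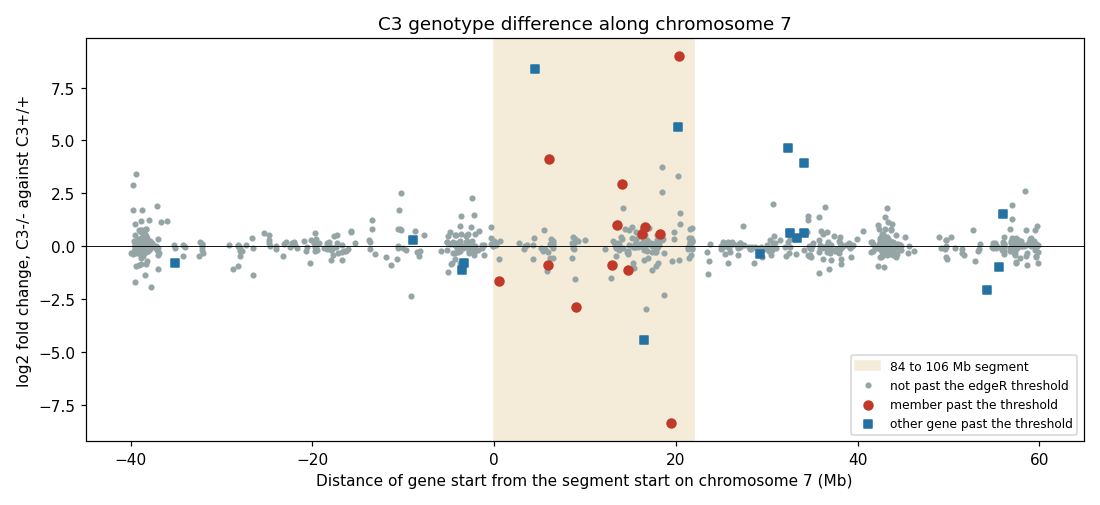
Each point is a tested gene on chromosome 7, placed by the distance of its start from the start of the segment (Mb) and by its log2 fold change for C3-/- against C3+/+; the shaded band is the segment. The 13 members in red lie across the band, and blue squares are 3 other genes of the segment and 13 genes outside it that are past the threshold.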

How the data were processed

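The authors deposited raw counts per gene, with no normalization, for 27 retinal libraries. Per the submitters' processing notes, the tools were STAR 2.7.3a for alignment to GRCm38 and featureCounts (Subread 2.0.0) for counting; featureCounts 2.0.3 and Ensembl release 101 stand in the file headers. Per the file headers, reads were counted over exon and whole-gene features, without strand and without multi-overlapping reads, so a gene and an overlapping partner lose their shared reads.

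The analysis used edgeR 4.0.16 in R 4.3.3, with TMM factors, a filter on low counts (filterByExpr by group, at least 10) that kept 17409 genes, and the robust quasi-likelihood test with genotype group and run as terms and 22 residual degrees of freedom. Standard errors come from the F statistic. Adjustment of p-values followed Benjamini-Hochberg over all tested genes (threshold 0.05). They measure the spread between mice, as each library has its own mouse in the labels. Without molecular identifiers, PCR copies cannot be told from separate molecules, so counting intervals cover counting error only. Alternatives were DESeq2 1.42.0, limma 3.58.1 (voom with quality weights), RLE factors, other filters, other model terms, each run alone and leaving out each mouse. The procedure was also run on simulated counts, which held no difference by sex and no difference of the C3 effect between runs. Its outcome is not given here, and nothing is read from it. Coding sequences were aligned end to end, and other pairs locally.

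The members and lists were chosen with earlier results of these data known. Named genes were the 5 given with the selection rule (Rab6a, Ints4, Pgap2, Trim12a, Olfr607), up to 12 higher and 12 lower members past the threshold, up to 3 members of each list with the smallest p, and genes at the edges; provisional symbols were named only among the 5 largest changes, with exceptions stated.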

Additional observations from a re-analysis of the deposited data

Results flagged for a closer look

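In groups of 6 or 7 libraries, 9 of 161 groups over 41 genes held 1 library far from its nearest neighbour by Dixon's criterion, and chance gives about 1 in 20. C3-/- mouse 6 stood apart for 3 genes: Hbb-bs at 648 CPM (nearest other 64.9), Hbb-bt at 38.2 CPM (nearest 5.51) and Dchs1 at 22.8 CPM (nearest 9.50). Wildtype mouse 5 stood apart for Trim12c, at 12.2 CPM (nearest 6.59), and it held the single Trim12a count of the C3+/+ mice, at 0.0512 CPM against 0. C3-/- mouse 5 had 3.00 CPM of Gm26862 (nearest 0.993), against a wildtype range from 2.77 to 7.34 CPM. Among Gne+/- C3-/- mice, mouse 3 had 7.88 CPM of Gm35082 (nearest 2.39), mouse 8 had 4.25 CPM of Trim30a (nearest 2.42) and mouse 7 had 3.78 CPM of Gm15645 (nearest 1.38).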

How the results depend on the processing

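For C3-/- against C3+/+ over both Gne genotypes, 13 members were past the threshold; DESeq2 and limma-voom gave 18 each, no filter on low counts 20, no run term 8 and run 2 alone, with 9 libraries, 4. Leaving out 1 mouse gave 11 to 15. The share of all tested genes is not given for these alternatives or for those of the other C3 comparisons below. Their counts therefore describe the members alone and are not set against other genes. For C3-/- against wildtype (8 members), no run term gave 5 and run 2 alone 3. For Gne+/- C3-/- against Gne+/- (6 members), no filter gave 13 and run 2 alone 2. For Gne 1 member passed without the filter and 0 under the other alternatives, and for the interaction 0 under all. The added test of the C3 difference between runs (1 member) gave 0 with a Y-linked term, 2 with limma-voom and 3 with DESeq2. The cause of these shifts was not tested, beyond the fewer libraries of run 2 alone.

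Trim12a and E230029C05Rik stayed past the threshold under all 10 alternatives. Rab6a, Ints4, Olfr607 and Gm2115 lost it in run 2 alone, and Pgap2, Pgm2l1, Myo7a, Gm15506 and Gm26862 in 2 or 3 alternatives that include run 2 alone. Eed lost it in 5: limma-voom, no run term, run 2 alone, the mouse number in place of the run term, and a Y-linked term. Of the members past the threshold, only Eed lost it with the Y-linked term. The part of sex was not tested beyond that term. Nars2 lost it in 3: limma-voom, no run term, and the mouse number in place of the run term. It changed sign in run 2 alone, at a log2 fold change of 0.036. The cause was not tested. Further members passed under alternatives alone, those without 1 mouse included: Rsf1 in 10, Mrpl48 in 9, Rnf169 in 7 and Gm35082 in 6. Each of these passed in DESeq2 and without the filter on low counts. Ccdc81 passed in 3, and the rest, such as Dlg2 and Stim1, in 1 each. Rnf169 and Ccdc81 were named after their values were seen. With the mouse number as a replicate block in place of the run term, 11, 7 and 5 members passed in the 3 C3 comparisons and 0 for Gne and the interaction. The share of all tested genes is not given here either. For same-numbered mice, the correlation of deviations from genotype-by-run means was -0.06 to 0.27 over 31 pairs, with a median of 0.01. Of these, 5 pairs were over 0.1. The median for mice of other numbers in the same run was -0.001. Most groups of run 2 held 2 libraries, whose deviations mirror each other, so their pairs are not independent. These values show no clear pairing and cannot settle it.

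Trim12a, Olfr607 and Myo7a rest on few counts per library.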

Other observations

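The segment held 3 further genes past the threshold that were not members, and they were named after their values were seen. Rps13-ps2, a processed pseudogene of a ribosomal protein gene that the selection left out by symbol, had 1700 counts over the 13 C3-/- libraries and 6 over the 14 C3+/+ libraries, a ratio of summed levels of 341 with a 95% counting interval of 157 to 932. Trim5, with a mean count of 13.2, had 0 in 13 of 14 C3+/+ libraries and in 2 of 13 C3-/- libraries, with a highest level of 1.5 and 3.64 CPM. Gm39059, a non-coding RNA gene, had a log2 fold change of -4.41 ± 0.83 (SE) for C3-/- against C3+/+.

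Outside the segment 13 genes of chromosome 7 were past the threshold in the same comparison. Those before it included Blm, a DNA helicase gene, at -1.10 ± 0.19, and Iqgap1, a scaffold of the cell cortex, at -0.77 ± 0.14. Those after it included Rps13 at 4.63 ± 0.78, Rps15a at 3.94 ± 0.49 and Arl6ip1, an endoplasmic reticulum shaping protein gene, at 0.66 ± 0.10. Rps13 and Rps15a have processed copies elsewhere in the genome, so their counts are uncertain.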
